A study of Mus musculus with 6 samples.

Results

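The collagen genes of the mouse genome were examined in the dorsal pancreas of knockout and control embryos. They were taken as every row of the authors' deposited table whose symbol consists of Col, a number, the letter a and a number, which gave 41 genes of 14681. RefSeq annotates 44 such genes on GRCm38.p6, and all 41 matched it by gene identifier; Col4a4, Col4a5 and Col24a1 are not analysed here. The samples were 3 knockout and 3 control pancreata from C57BL/6 embryos at embryonic day 18.5, shortly before birth. The extraction protocol calls the knockout embryos Dpy30∆P; the sample titles say only knockout or control, and neither the driver of the deletion nor the genotype of the controls is given in the sources used here. Dpy30 is a core subunit of the complexes that methylate lysine 4 of histone H3, and the deposited table's own name refers to Pdx1 instead. Its fold changes carry no stated numerator. A positive value is read here as higher in knockout than in control, on the usual convention, and every direction would turn if the table had been made the other way round.

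Collagens are the main structural proteins of the extracellular matrix. Each chain carries a stretch of repeating residue triplets that begin with glycine, and such chains wind around each other into a helical trimer. Fibrillar collagens assemble into the banded fibres of connective tissue, basement membrane collagens form the sheets beneath epithelia and around vessels, network collagens form beaded filaments or lattices, and FACIT collagens decorate the surface of fibrils. In the developing pancreas, mesenchymal cells lay down most fibrillar collagen, while basement membranes line the epithelium and the blood vessels.

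The 41 genes comprised 10 fibrillar, 6 basement membrane, 9 network and 9 FACIT collagens, with 4 transmembrane collagens and 3 others (Col7a1, Col26a1 and Col28a1) outside these classes. The Col6 family was placed with the network collagens. Glycine codons in the longest coding sequence of each gene (GENCODE M21, GRCm38) separated the fibrillar genes from the rest. The longest unbroken run of codon triplets that each begin with a glycine codon spanned 217 to 344 codon triplets in the fibrillar genes, with a median of 338, and Col27a1 was the shortest. It spanned 30 to 66 triplets in basement membrane genes, 37 to 87 in network genes and 32 to 113 in FACIT genes. Basement membrane genes instead held many interrupted runs, between 11 and 25 when runs of at least 5 triplets were counted. Col4a1 had 22 and Col4a2 had 24, against 2 each in Col3a1, Col1a1 and Col1a2. Many runs were not particular to that class: the FACIT gene Col16a1 had 21 and Col7a1 had 20.

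**Figure D1:**
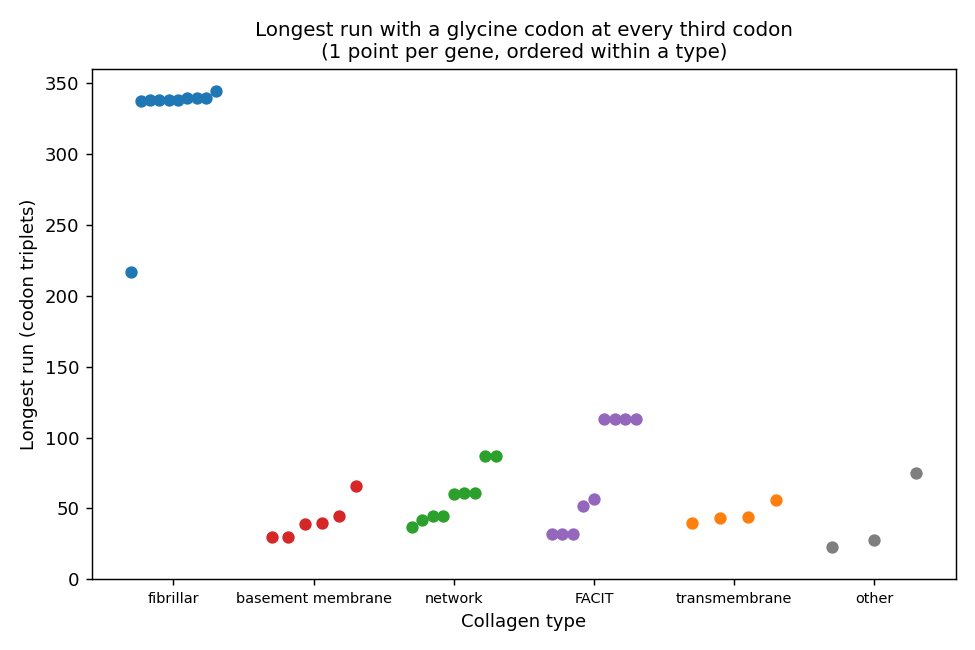
Longest unbroken run of codon triplets that each begin with a glycine codon (y axis, triplets) for each of 41 collagen genes, by type (x axis); 1 point per gene. The fibrillar genes sit between 217 and 344 triplets and every other gene at 113 or fewer.

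The deposited table held test results with 1 mean normalized count per gene over all 6 libraries and no value for a single library. The values of single pancreata, the overlap of the groups and the depth of each library are therefore unknown, and no library could be left out. The deposited log2 fold changes were shrunken towards 0 by the authors, with 92.7% of them within 0.1 of 0; values called reconstructed below are unshrunken log2 fold changes with their standard error (SE), computed from the deposited value and its error. Calls use a threshold of 0.05 on the adjusted p. Dpy30 itself averaged 29.4 normalized counts in the authors' deposited table; the reconstructed value was 0.50 ± 1.66 (SE) on the log2 scale, so at this depth it could not check the labels.

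Together the collagen genes held 2.71% of all normalized counts in the authors' deposited table. On a scale of mean normalized count per kb of transcript, which corrects for gene length, fibrillar genes made up 71.0% of the collagen total, network genes 14.3%, basement membrane genes 9.68% and FACIT genes 4.67%. Col3a1, the chain of type III collagen of reticular fibres, had the highest level, at 4712 counts per kb. Col1a1 and Col1a2, the chains of type I collagen, followed at 3685 and 2086 counts per kb. Next came Col6a1 and Col6a2, of beaded filaments, at 1019 and 916 counts per kb, Col5a1, a minor fibril chain that helps to start fibrils, at 783, and Col4a1, of basement membranes, at 746. Col14a1, a FACIT of fibril surfaces, had the highest level of its class at 457 counts per kb. At the other end, 14 genes had a mean normalized count under 50 in the authors' deposited table. They included Col2a1, the fibrillar collagen of cartilage, at 4.08 counts per kb, Col10a1, of growth plate cartilage, at 1.56, and Col8a1 at 0.465. Since no spread over libraries can be had, neighbours in this order cannot be said to differ.

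**Figure D2:**
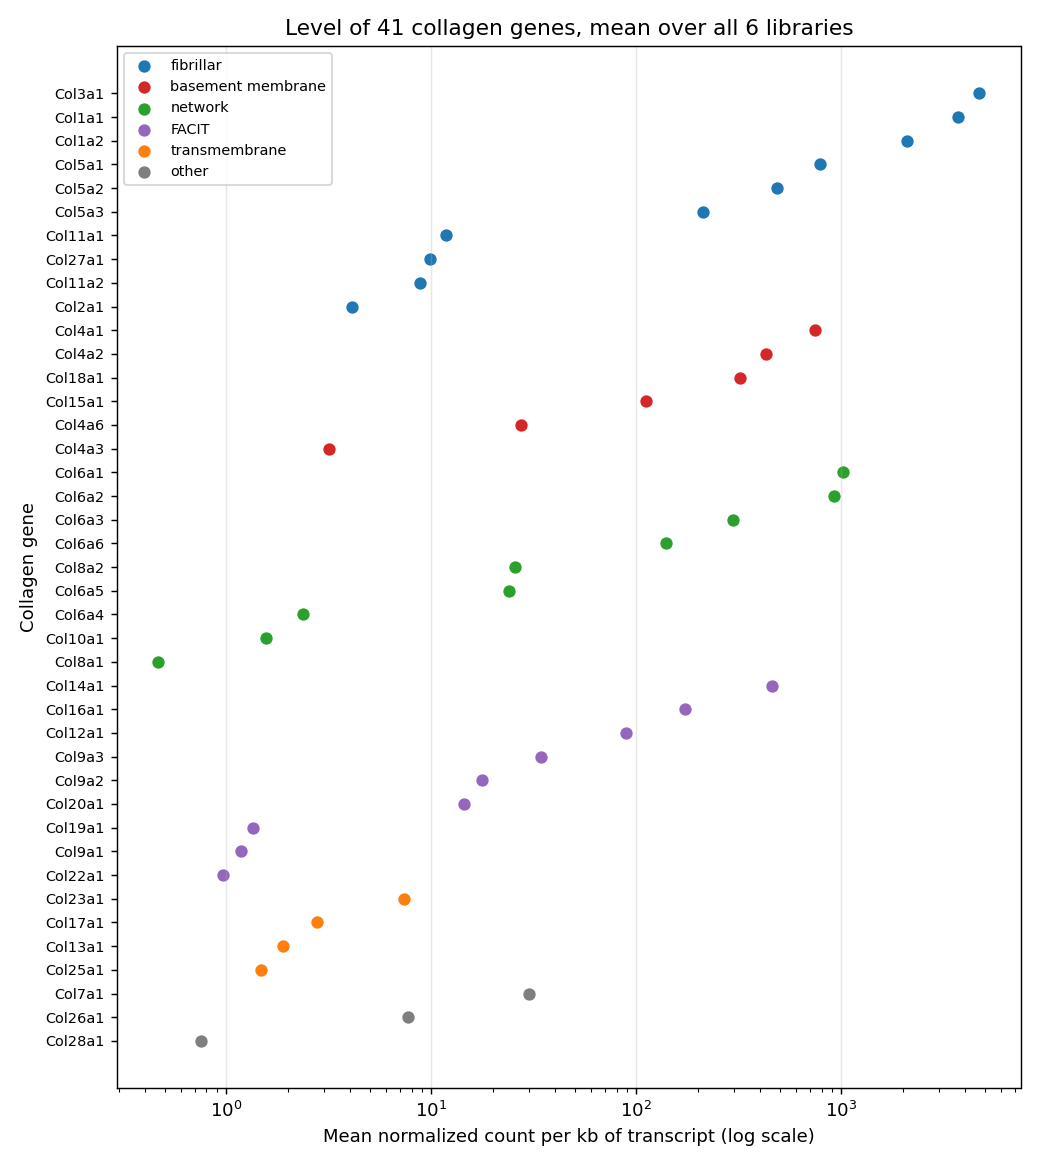
Mean normalized count per kb of transcript (x axis, log scale) of 41 collagen genes, grouped and coloured by type; each point is a mean over all 6 libraries, so no error can be shown. Col3a1 leads at 4712 counts per kb, and the basement membrane genes reach 746.

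In the authors' DESeq2 test, 0 of the 35 collagen genes with an adjusted p were called in either direction, where 0.743% of all 12108 genes with an adjusted p were called, 0.264% as higher and 0.479% as lower. The other 6 collagen genes had a p but no adjusted p. At an unadjusted p under 0.05, 6 of 41 collagen genes lay above 0 and 0 below. Over all 14386 genes with a p, the share was 2.7% above and 2.7% below. Those 6 were Col6a6, Col3a1, Col14a1, Col6a5, Col1a2 and Col5a1, in order of p. The smallest adjusted p of a collagen gene in the authors' deposited table was 0.0982, that of Col6a6.

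Most abundant members lay above 0. Of the 15 collagen genes with a mean normalized count of at least 1000 in the authors' deposited table, 14 had a fold change above 0, or 93.3%; the share was 55.0% of the 409 genes of all kinds at that level. Unadjusted p-values under 0.05 in the authors' DESeq2 test went to 5 of the 15 above 0 and to 0 below, where 9.31% of all genes at that level passed above 0 and 12.3% below. The median reconstructed log2 fold change was 0.49 over these 15 genes and 0.07 over all genes at that level. The 26 less abundant members had a median of 0.11 over the 25 with a reconstructed value. Collagen genes share libraries and cells of origin, so these counts are not independent observations. In a bulk sample, more cells of a type and more RNA per cell cannot be told apart.

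**Figure D3:**
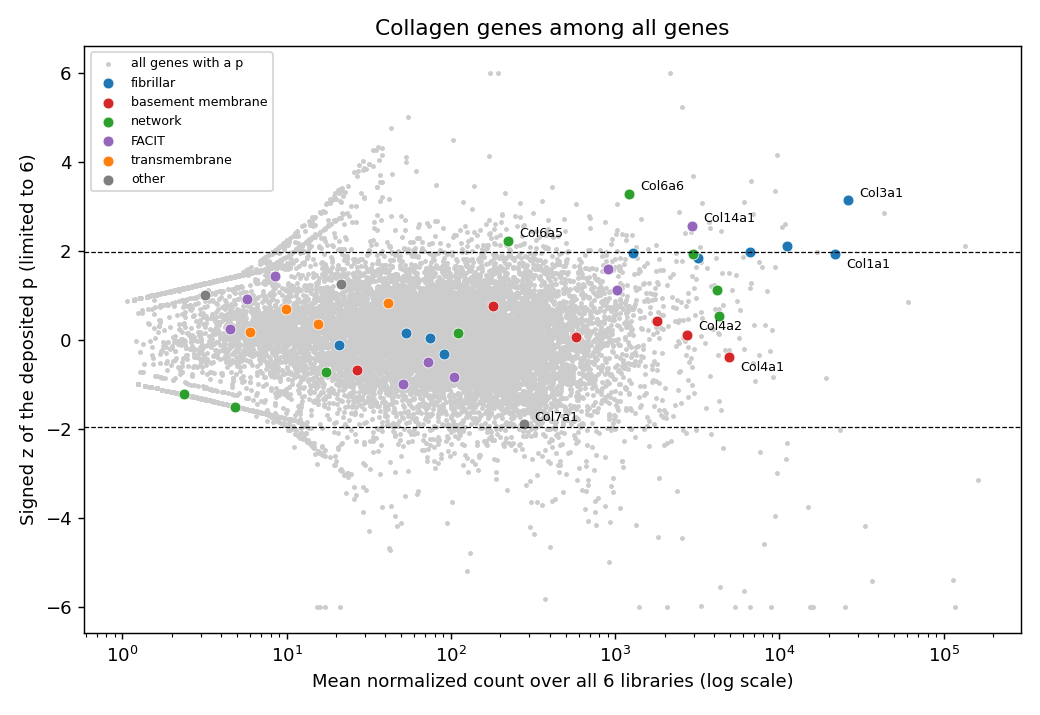
Signed z of the deposited p (y axis, limited to 6 in either direction) against the mean normalized count over all 6 libraries (x axis, log scale) for 41 collagen genes, coloured by type, and all 14386 genes with a p (grey); dashed lines mark an unadjusted p of 0.05. The fibrillar genes with a mean count of at least 1000 lie close to or above the upper line, whereas Col4a1 and Col4a2 lie near 0.

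Among the fibrillar collagens, the chains of types I, III and V had closely similar values. All 6 lay above 0, between 0.46 and 0.63 on the reconstructed log2 scale, a range no wider than the SE of any of them. Col3a1 (Entrez gene 12825; chromosome 1, 45311538 to 45349706) had the narrowest interval. Its reconstructed log2 fold change was 0.63 ± 0.20 (SE; 95% interval from 0.23 to 1.03), or 1.55-fold, with an adjusted p of 0.146 in the authors' DESeq2 test. Col1a2 was at 0.54 ± 0.26 and Col1a1 at 0.53 ± 0.27 (SE), and the authors' deposited table gives them adjusted p-values of 0.710 and 0.787 from its DESeq2 test. The 3 chains of type V collagen, which sits inside type I fibrils and limits their diameter, were at 0.46 ± 0.23 (SE) for Col5a1, 0.53 ± 0.29 for Col5a2 and 0.58 ± 0.30 for Col5a3. None of these genes passed the adjusted threshold; the unadjusted p in the authors' DESeq2 test lay between 0.00175 for Col3a1 and 0.0663 for Col5a2.

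The remaining fibrillar genes are known chiefly from cartilage and had few counts. Col11a1, a minor chain of cartilage fibrils, had a mean normalized count of 90.6 in the authors' deposited table and was at -0.30 ± 0.94 (SE) on the reconstructed log2 scale. Col27a1 was at 0.06 ± 1.51, Col11a2 at 0.23 ± 1.59 and Col2a1 at -0.16 ± 1.54 (SE), so changes of several-fold either way were not detectable. Over all 10 fibrillar genes the median was 0.49, beside 0.08 over all 13059 genes with a reconstructed value.

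RefSeq lists an upstream window for some of the abundant genes, and those of Col3a1, Col5a1 and Col18a1 are shown because they come from a fibrillar pair with values above 0 and from a basement membrane gene near 0. Each runs upstream of the gene's start on GRCm38.p6 and ends before the first annotated transcribed base: chr1:45311288-45311537 on the plus strand for Col3a1, chr2:27886175-27886380 on the plus strand for Col5a1, and chr10:77166549-77166780 on the minus strand for Col18a1. Capitals mark motifs searched on both strands. The TATA box was searched as TATAAA. For the CCAAT box the letters of its name were used, and the GC box was spelled GGGCGG in the search. None of the marked motifs overlap.
Col3a1: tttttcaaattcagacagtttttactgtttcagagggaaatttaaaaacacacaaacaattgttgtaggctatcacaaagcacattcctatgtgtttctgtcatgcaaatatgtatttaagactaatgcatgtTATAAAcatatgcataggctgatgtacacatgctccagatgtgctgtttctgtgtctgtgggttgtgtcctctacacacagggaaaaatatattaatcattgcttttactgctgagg
Col5a1: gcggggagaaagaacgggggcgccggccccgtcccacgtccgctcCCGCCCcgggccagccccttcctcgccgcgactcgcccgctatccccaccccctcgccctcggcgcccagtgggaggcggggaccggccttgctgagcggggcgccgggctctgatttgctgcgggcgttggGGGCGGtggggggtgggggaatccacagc
Col18a1: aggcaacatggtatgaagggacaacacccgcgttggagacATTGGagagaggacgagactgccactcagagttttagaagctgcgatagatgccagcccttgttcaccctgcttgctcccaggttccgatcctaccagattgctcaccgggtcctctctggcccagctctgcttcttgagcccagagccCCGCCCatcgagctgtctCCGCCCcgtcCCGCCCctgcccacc
The Col3a1 window held 1 match to the TATA box letters, which began 117 bases upstream of the gene's start. Whether it acts as a TATA box was not tested. The letters occur in 12.4% of the 32817 windows of 250 bases in the table. GC contents and motifs were taken over the full window of 250 bases, of which the lines above show the part free of annotated exons. For Col5a1 the full window runs to 27886424, past the gene's annotated start at 27886381. The GC content of the Col3a1 window was 35.2%, below the median of 52.4% over those windows. The Col5a1 window had a GC content of 76.4% and held 2 GC boxes, and the Col18a1 window had a GC content of 62.0% and held 3 GC boxes and 1 CCAAT box; 32.7% of all windows held a GC box and 33.8% a CCAAT box.

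Basement membrane collagens lay near 0. Col4a1 and Col4a2, whose chains form the most widespread type IV collagen, had reconstructed log2 fold changes of -0.13 ± 0.33 and 0.03 ± 0.35 (SE), with 95% intervals from -0.78 to 0.52 and from -0.65 to 0.72. Col18a1, the source of the fragment endostatin, was at 0.14 ± 0.33 (SE). Col15a1, of vessel and muscle basement membranes, was at 0.03 ± 0.47 (SE). Col4a6, a chain of more restricted epithelial and smooth muscle membranes, was at 0.51 ± 0.66 (SE), and Col4a3, a chain best known from the kidney glomerulus, had a mean normalized count under 50 in the authors' deposited table. The lowest unadjusted p of the 6 genes in the authors' DESeq2 test was 0.446, and the median reconstructed value was 0.03, which turns to -0.26 relative to the fibroblast markers described further on. The intervals of Col4a1, Col4a2 and Col18a1 overlap those of the fibrillar genes; whether the types differ in response was not tested, because that needs the values of single libraries.

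Within the network class, the 4 Col6 genes with an SE of at most 1 lay between 0.14 and 1.02 on the reconstructed log2 scale. Type VI collagen forms beaded filaments that tie cells to the interstitial matrix, and its alpha 1 and alpha 2 chains join with 1 of the longer chains encoded by Col6a3, Col6a4, Col6a5 and Col6a6. Col6a6 (Entrez gene 245026; chromosome 9, 105689417 to 105828246) had the largest reconstructed log2 fold change of the 21 collagen genes with an SE of at most 1. Its value was 1.02 ± 0.31 (SE; 95% interval from 0.41 to 1.64), or 2.03-fold, and the authors' DESeq2 test gave it p = 0.00104 before adjustment and 0.0982 after. Col6a3 was at 0.49 ± 0.25 (SE), Col6a1 at 0.27 ± 0.24 and Col6a2 at 0.14 ± 0.26, with adjusted p-values of 0.787, 1.00 and 1.00 in the authors' deposited table. Col6a5 had an unadjusted p of 0.0268 (adjusted p = 0.640) and a mean normalized count of 223 in the authors' deposited table, where its shrunken log2 fold change was 0.12; its unshrunken size missed the tolerance for a match and is not given. Col6a4 had a mean normalized count of 17.4 in the authors' deposited table and a reconstructed value of -1.94 ± 2.73 (SE).

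Col6a4, Col6a5 and Col6a6 lie in a row on chromosome 9, with 27823 bp between Col6a6 and Col6a5 and 27854 bp between Col6a5 and Col6a4 on GRCm38.p6. Their levels were unequal, at 139 counts per kb for Col6a6 and 2.36 for Col6a4, with Col6a5 between them. The 2 more abundant members of the row were those that passed an unadjusted p of 0.05. With an SE of 2.73, Col6a4 could hide a change of several-fold, so whether the neighbours respond alike cannot be told. The remaining network genes had few counts: Col8a2, of the corneal Descemet membrane, was at 0.11 ± 0.76 (SE), and Col8a1 and Col10a1 had mean normalized counts of 2.37 and 4.88 in the authors' deposited table, with no adjusted p. The median reconstructed value of the 8 network genes that have one was 0.12 (-0.16 relative to fibroblast markers), and that of the 5 with an SE of at most 1 was 0.27.

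The 3 most abundant FACIT collagens lay above 0. Col14a1, which binds fibrils in loose connective tissue, was at 0.67 ± 0.26 (SE; 95% interval from 0.16 to 1.19) on the reconstructed log2 scale, or 1.59-fold, and the authors' DESeq2 test gave it p = 0.0107 before adjustment and 0.428 after. Col16a1 was at 0.55 ± 0.35 and Col12a1, a FACIT of dense fibrous tissue, at 0.34 ± 0.31 (SE). Both intervals include 0. The type IX genes, whose product coats cartilage fibrils, included values below 0: Col9a3 was at -0.90 ± 1.07 and Col9a2 at -1.14 ± 1.16 (SE), with mean normalized counts of 104 and 51.4 in the authors' deposited table, and Col9a1 had a mean of 4.50. Col20a1 was at -0.49 ± 1.01 (SE). Col19a1 and Col22a1 had mean normalized counts of 5.73 and 8.53 in the authors' deposited table, too few for a useful size. The median over the 9 FACIT genes was 0.55, but it was -0.075 over those with a mean count of at least 50.

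Col7a1, which forms the anchoring fibrils that fasten epithelial basement membranes to the stroma, had the lowest value of the 21 collagen genes with an SE of at most 1. Its reconstructed log2 fold change was -1.21 ± 0.64 (SE; 95% interval from -2.46 to 0.03), and the authors' DESeq2 test gave it p = 0.0572 before adjustment and 0.802 after. It had a mean normalized count of 278 in the authors' deposited table. Col26a1 and Col28a1 had mean counts of 21.4 and 3.18 there. The 4 transmembrane collagens, some of which are shed from cell surfaces, had mean normalized counts between 5.96 for Col13a1 and 41.6 for Col23a1 in the authors' deposited table; Col17a1, of the hemidesmosome, had 15.4 and Col25a1, expressed in neurons, 9.90. All 4 had a sign above 0, and the lowest unadjusted p in the authors' DESeq2 test was 0.405.

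**Figure D4:**
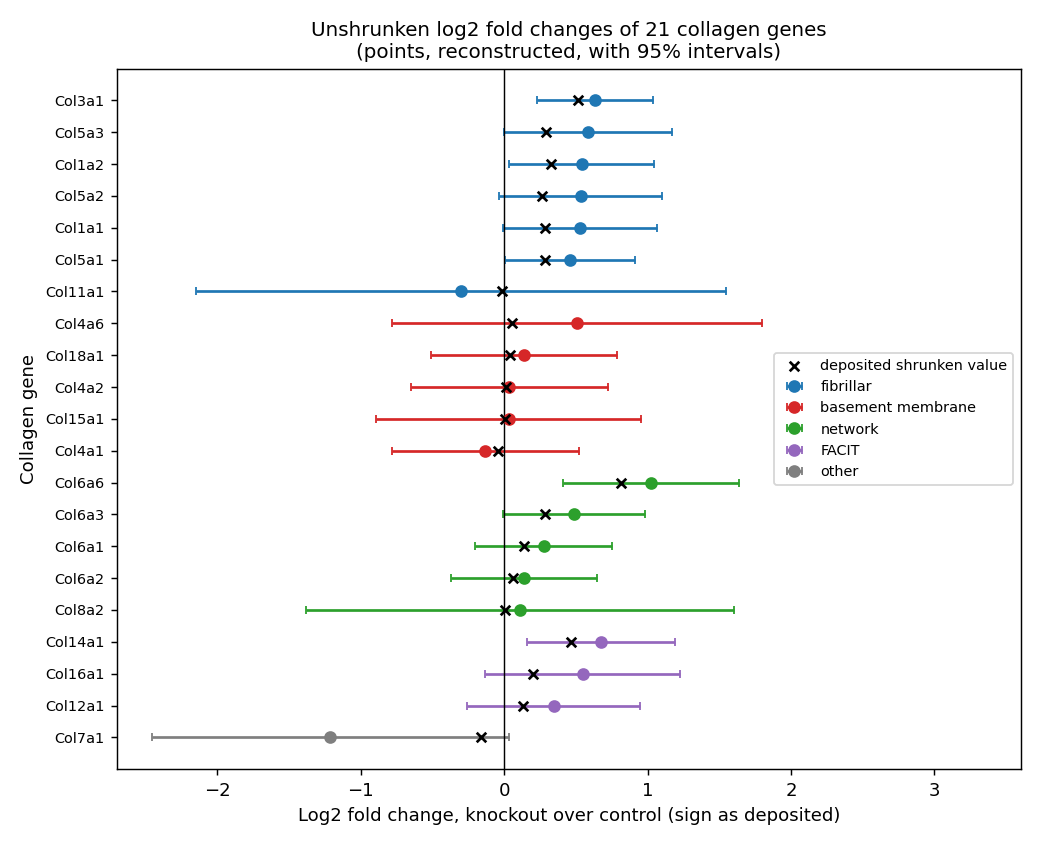
Reconstructed log2 fold changes (x axis, knockout over control, sign as deposited) with 95% intervals for the 21 collagen genes with an SE of at most 1, by type; crosses are the authors' deposited shrunken values. The 6 genes of types I, III and V lie between 0.46 and 0.63, basement membrane genes cluster around 0 except Col4a6, Col6a6 lies highest at 1.02 and Col7a1 lowest at -1.21.

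Partner chains were compared because the trimers they form have a fixed make-up, with more alpha 1 than alpha 2 chains in types I and IV. Per kb of transcript, the level of Col1a1 was 1.77 times that of Col1a2, and the level of Col4a1 was 1.75 times that of Col4a2. The level of Col6a1 was 1.11 times that of Col6a2 and 3.45 times that of Col6a3. Reconstructed log2 fold changes differed by -0.01 between Col1a1 and Col1a2, by -0.17 between Col4a1 and Col4a2, by 0.14 between Col6a1 and Col6a2 and by -0.21 between Col6a1 and Col6a3. Each of these gaps is smaller than the SE of either chain. The gap between Col6a1 and Col6a6 was -0.75, larger than the SE of either, 0.24 and 0.31, and was not tested. Col1a1 and Col1a2 lie on different chromosomes, whereas Col4a1 and Col4a2 are divergent neighbours on chromosome 8 whose annotated ends overlap. Col3a1 and Col5a2, 24624 bp apart on chromosome 1, were at 0.63 and 0.53.

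Genes that act on collagen were set beside the collagens themselves. Of 59 listed genes for modification, secretion, processing, crosslinking, turnover and reception, 53 were in the authors' deposited table, and 0 of the 47 with an adjusted p were called by the authors' DESeq2 test; 0.743% of all genes were. At an unadjusted p under 0.05, 5 of the 52 with a p lay above 0 and 3 below, where 2.7% of all genes lay on each side. That share was larger among abundant genes, at 9.31% above and 12.3% below for a mean count of at least 1000, which few of the listed genes reach. Colgalt1, which adds galactose to hydroxylysine in the endoplasmic reticulum, had the smallest p of the list, at 1.66 ± 0.53 (SE) on the reconstructed log2 scale and an adjusted p of 0.148 by the authors' DESeq2 test. Adamts2, which removes the amino-terminal propeptides of fibrillar procollagens, was at 1.21 ± 0.57 (SE). Lox, the lysyl oxidase that starts crosslinks, was at 0.84 ± 0.42, Mmp14, a membrane-bound collagenase, at 0.68 ± 0.30, and Timp2, an inhibitor that also helps Mmp14 to activate Mmp2, at 1.18 ± 0.54 (SE).

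The 3 genes below 0 were P4hb, P4ha1 and Mia2. P4hb, the protein disulfide isomerase that is also a subunit of prolyl 4-hydroxylase, was at -0.61 ± 0.23 (SE), with adjusted p = 0.354 by the authors' DESeq2 test. P4ha1, a catalytic subunit of that enzyme, was at -1.24 ± 0.62, and Mia2, a cargo export factor, at -1.21 ± 0.51 (SE). P4hb had a mean normalized count of 10906 in the authors' deposited table; it also folds other proteins of secretory cells, among them those of the exocrine pancreas. Serpinh1, the collagen chaperone HSP47, was at 0.39 ± 0.24 (SE; 95% interval from -0.08 to 0.85). The most abundant genes of the other roles were Sparc at 0.28 ± 0.24, Plod1 at 0.28 ± 0.48, Pcolce at 0.66 ± 0.42, Loxl2 at 0.53 ± 0.35 and the receptor chain Itgb1 at 0.27 ± 0.37 (SE). All of these intervals include 0. By role, the median over genes with an SE of at most 1 was -0.17 for prolyl hydroxylation, 0.28 for lysyl hydroxylation and glycosylation, 0.28 for secretion chaperones, 0.67 for propeptide processing, 0.66 for crosslinking, 0.47 for degradation and 0.27 for receptors. Over all genes with a reconstructed value, the median for lysyl hydroxylation and glycosylation was -0.18 and that for propeptide processing was 1.20; the other roles kept their sign, between -0.12 and 0.53.

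**Figure D5:**
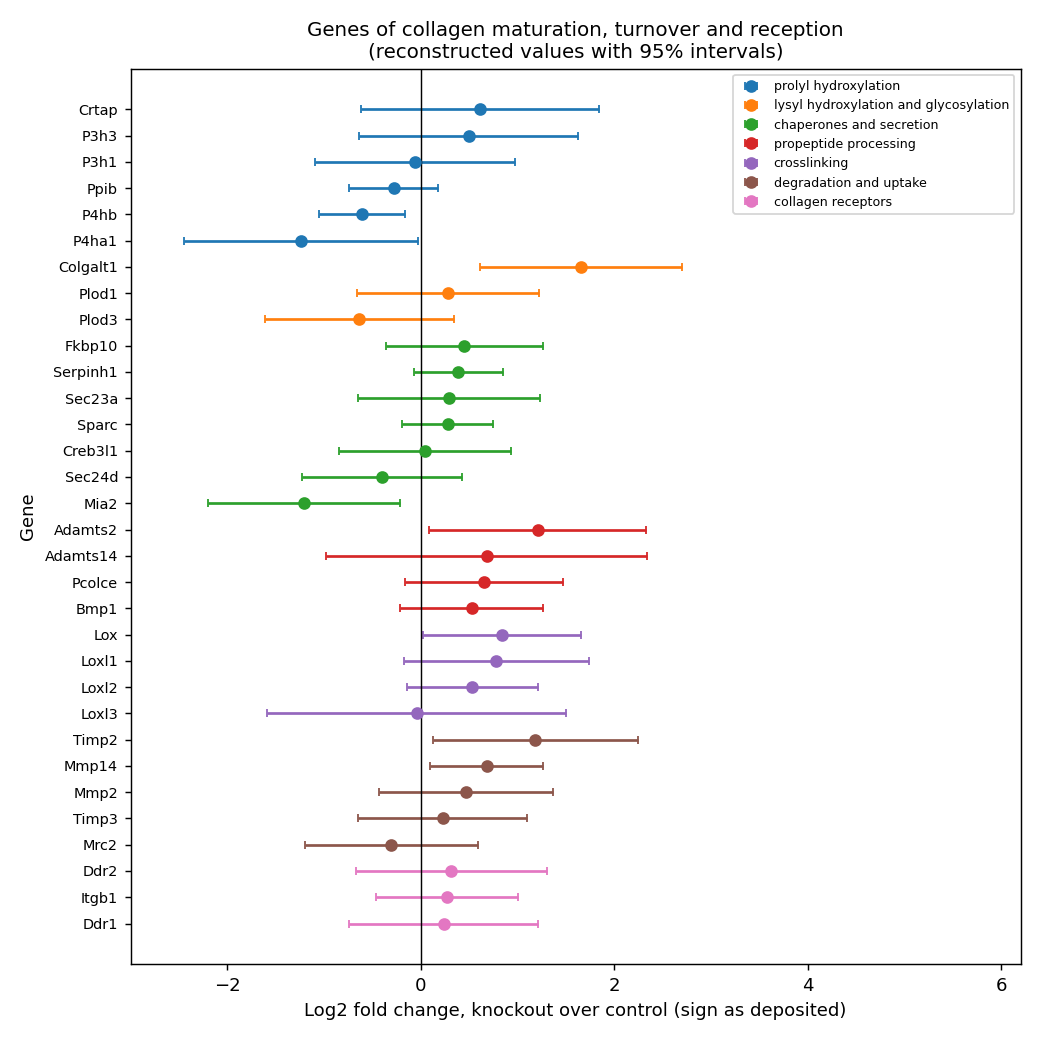
Reconstructed log2 fold changes (x axis, knockout over control, sign as deposited) with 95% intervals for the 32 genes of collagen maturation, turnover and reception with an SE of at most 1, coloured by role. Colgalt1 lies highest at 1.66; P4hb, P4ha1 and Mia2 lie below 0, with intervals that do not reach 0.

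Markers of the cells that make or border on collagen were examined beside it; over all genes, 54.7% lay above 0 and 0.743% of those with an adjusted p were called. All 10 epithelial markers in the authors' deposited table lay below 0, with a median reconstructed log2 fold change of -0.74 and a summed mean normalized count of 7978; Krt18 was called as lower at -1.23 ± 0.28 (SE; adjusted p = 0.00315 in the authors' DESeq2 test), and Krt8 was at -0.36 ± 0.43. Of the fibroblast and mesenchyme markers, 11 of 16 lay above 0, with a median of 0.29, a summed mean count of 18514 and 0 called; Vim was at 0.65 ± 0.23 and Fstl1 at 0.26 ± 0.21 (SE). Smooth muscle and pericyte markers lay above 0 in 11 of 12, with a median of 0.81 over the 11 with a reconstructed value and 0.33 over the 9 with an SE of at most 1, Smtn at 1.05 ± 0.44 and Des at 0.81 ± 0.48 (SE). Endothelial markers lay above 0 in 9 of 14, with a median of 0.13 over the 13 with a reconstructed value, Cdh5 at 0.17 ± 0.44 and Pecam1 at 0.04 ± 0.51 (SE). Mesothelial markers were even, with 3 of 6 above 0, Upk3b at 0.45 ± 0.39 and Lrrn4 at 0.00 ± 0.40 (SE).

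Cartilage and bone markers, with the exception of Sox9, were at or near the detection limit. Of 10 listed, 5 were in the authors' deposited table; Sox9 is also expressed by pancreatic epithelium, and none of the other 4 had a mean normalized count above 4.26, that of Sp7. Sox9 was at -0.96 ± 0.58 (SE). Schwann and neural markers had few counts, with Erbb3 at 0.24 ± 0.75 (SE) and 6 of 9 above 0. Macrophage markers lay above 0 in 8 of 10, with a median of 0.33, Mrc1 at 0.02 ± 0.47 and Lyz2 at 0.37 ± 0.58 (SE). Levels per group cannot be had from the table. Relative to the median of the fibroblast and mesenchyme markers, the fibrillar median was 0.21, the FACIT median 0.26 and that of all collagens 0.11. The network median was -0.16 and the basement membrane median -0.26 on that scaling. Sparse genes enter these medians: unscaled, the FACIT median was -0.075 with a mean count of at least 50. The marker median, 0.29 over all 16, was 0.33 over the 14 with an SE of at most 1. Fibroblast markers with a mean normalized count of at least 1000 lay between 0.11 and 0.82. The collagen chains of types I, III and V, between 0.46 and 0.63, lay inside that range. The part of these cell types in the collagen values was not tested.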

How the data were processed

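RNA from 6 pancreata was sequenced; the labels' protocols describe TRIzol extraction, DNase treatment, ribosomal RNA removal and SMARTer stranded libraries. Trimmomatic, Salmon, DESeq2 and the build GRCm38 (mm10) are named per the submitters' processing notes, without versions or settings. For each gene the authors deposited a signal (the mean normalized count over all libraries), a log2 fold change with its error in log2 units, and the p-value of its test before and after adjustment. No gene was tested again. Benjamini-Hochberg adjustment of the 12108 genes with an adjusted p returned the deposited values to within 0.000755.

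Unshrunken values assume a Cauchy prior of a common scale and a quadratic likelihood. The scale of 0.31025 best returned the deposited p-values: the z of the reconstructed value came within 0.1 of that of the p for 90.8% of 14386 genes, and sizes are given only for these. The arithmetic was tested on data simulated under these same assumptions with the scale known and the genes of largest SE left out. That run cannot check the assumptions themselves or the values of the sparsest genes. Levels were divided by the longest protein-coding transcript (GENCODE M21). Calculations used Python 3.11.15, numpy 2.4.6, pandas 2.3.3 and scipy 1.17.1.

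The genes named are the 4 most abundant collagens of each type, those with an unadjusted p under 0.05, partner chains, maturation genes with an unadjusted p under 0.05 or the highest mean count of their role, the 2 most abundant markers of each cell type, 1 of which is not reported here, and Dpy30; the other low-count collagens and Serpinh1 were added after their values were seen. The members and lists were chosen with earlier results of these data known. The labels speak of 3 embryos of each kind; a p-value covers only the spread among these 6 samples. Alternatives changed the threshold, adjustment, count filter, prior scale and scaling. The single-cell experiment of the series' design text is not analysed here.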

Additional observations from a re-analysis of the deposited data

How the results depend on the processing

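The authors' DESeq2 values gave 0 called collagen genes at thresholds of 0.05 and 0.01, and 0 after Benjamini-Hochberg adjustment over every gene with a p or over genes with a mean count of at least 50; at an adjusted p under 0.1 the count was 1, Col6a6. The maturation genes gave 0 calls under each of these settings. The 6 collagen genes with an unadjusted p under 0.05 all had a mean count of at least 50. Medians are compared with the median SE of their members. The fibrillar median stayed above 0 under all settings and became 1.24 relative to epithelial markers, a scaling that adds 0.74 to every gene. The basement membrane median, 0.03, was -0.047 relative to all genes, -0.26 relative to fibroblast markers and 0.78 relative to epithelial markers. The network median was -0.16 relative to fibroblast markers and 0.87 relative to epithelial markers; these scalings add a constant to each gene. The network median, 0.12, was also 0.047 with the prior scale multiplied by 1.5, and 0.41 as an inverse-variance weighted mean. With the scale divided by 1.5 it was 0.50, taken only over the genes that kept a reconstructed value. Col6a2 and the sparse network genes had none at that scale, so the 0.50 and the 0.12 cover different members. Without the Col6 family the network median was -8.47, which rests on Col8a1, Col8a2 and Col10a1, of which only Col8a2 had a mean count of at least 50. The FACIT median was -0.075 with a mean count of at least 50; the rarest genes are left out there. With a prior scale 1.5 times the fitted one, the median of all collagen genes, 0.40, was 0.016 and that of the FACIT genes, 0.55, was 0.015. These lie near the deposited shrunken medians of 0.0096 and 0.0085, because sparse genes stay almost fully shrunken at that scale. The fibrillar median was 0.42 there and rests more on abundant genes, so this contrast is no result about the types. Dividing the scale by 1.5 gave no value for basement membrane genes. No paired analysis was possible because the table holds no value for a single library, and leaving out replicates was not run for the same reason. Depth limits the sparse collagen genes: an SE over 1 leaves a several-fold change undetected.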
